A study of Homo sapiens with 2 samples.

Results

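RFK, HSF1, PLAC8L1, FUOM and OR1J2 are the 5 protein-coding genes, of 19881 examined, whose transcription start site (TSS) window carried the OTX2 binding peaks of highest fold enrichment. The members were chosen by the fold enrichment of these peaks in the same libraries. A TSS window reaches 5 kb to the upstream side of the TSS and 2 kb to the downstream side, and a gene counted when a peak overlapped its window by at least 1 bp. The locus of each gene was its GENCODE record on GRCh38 with 50 kb added on each side, and the 5 loci held 45 of the 137412 deposited peaks. OTX2-bound DNA was measured by ChIP-Seq in D283, an established medulloblastoma cell line, grown as tumorspheres in Neural Proliferation Media with EGF and bFGF. Per the labels, the tumorspheres received no treatment and served as OTX2-expressing controls, and they stand for a single cell line. There was 1 OTX2 ChIP library, made with the antibody ab21990, and 1 input library made without antibody, so the values carry no error from replicates. The ChIP library held 61259377 fragments after duplicate removal and the input library 22521186.

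OTX2 is a homeodomain transcription factor of the developing forebrain, midbrain and cerebellum, and is a driver gene in medulloblastomas. Homeodomain proteins of its class bind short sites built on the letters TAATCC, and their peaks can lie at promoters, within introns or between genes. In ChIP-Seq, fragments pulled down with the antibody pile up over a bound site, the summit is the base where the pile is highest, and an input library of sheared chromatin gives the local background. A peak near a TSS does not by itself show which gene, if any, the bound protein acts on.

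Sequences of the promoters at these loci were taken from RefSeq (GRCh38.p14), which held an entry for 3 of the 5 genes (RFK, PLAC8L1 and FUOM). Each run below gives the 250 bases before an annotated start, read on the strand of the gene, with any match to TAATCC or TAATCT on either strand (read as GGATTA or AGATTA) in capitals. The starts of RFK and GCNT1 are shown because both lie beside the strongest peak of the set. The start of PLAC8L1 is shown because it was the only one of the 3 with a match, and that of OR1N1 because it was the only one of the promoters searched inside the loci with matches under a peak. The RFK run is chr9:76394427-76394676 (minus strand), the GCNT1 run chr9:76394603-76394852 (plus strand), the PLAC8L1 run chr5:146105578-146105827 (minus strand) and the OR1N1 run chr9:122527294-122527543 (minus strand).
RFK: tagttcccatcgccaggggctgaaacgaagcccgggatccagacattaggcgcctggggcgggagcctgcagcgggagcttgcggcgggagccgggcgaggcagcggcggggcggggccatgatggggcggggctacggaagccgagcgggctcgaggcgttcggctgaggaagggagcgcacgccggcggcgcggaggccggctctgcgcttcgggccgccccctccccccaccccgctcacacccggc
GCNT1: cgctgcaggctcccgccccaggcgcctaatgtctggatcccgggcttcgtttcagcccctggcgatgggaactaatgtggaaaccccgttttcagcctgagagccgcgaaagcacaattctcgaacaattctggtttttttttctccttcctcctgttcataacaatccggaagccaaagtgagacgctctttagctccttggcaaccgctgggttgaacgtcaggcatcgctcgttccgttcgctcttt
PLAC8L1: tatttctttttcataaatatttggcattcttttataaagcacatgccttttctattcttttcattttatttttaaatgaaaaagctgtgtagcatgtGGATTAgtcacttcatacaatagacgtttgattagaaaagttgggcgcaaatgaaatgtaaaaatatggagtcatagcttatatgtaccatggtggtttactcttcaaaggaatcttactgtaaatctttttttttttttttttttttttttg
OR1N1: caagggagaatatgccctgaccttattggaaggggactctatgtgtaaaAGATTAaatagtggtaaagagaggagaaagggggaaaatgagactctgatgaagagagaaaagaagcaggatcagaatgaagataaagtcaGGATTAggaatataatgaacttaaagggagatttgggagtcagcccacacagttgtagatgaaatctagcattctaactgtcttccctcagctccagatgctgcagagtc

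The RFK and GCNT1 runs read away from each other on opposite strands and share part of their bases. G and C made up 76.0% of the RFK run, 54.4% of the GCNT1 run, 41.6% of the OR1N1 run and 26.8% of the PLAC8L1 run. The match before PLAC8L1 lay 153 bp upstream of its start, and no peak covered that promoter. In the OR1N1 run, the AGATTA match lay at the summit of a small peak and the GGATTA match 86 bp from it. The 300-base promoter windows, which add 50 bases after the start, held TAATCC in 6.36%, TAATCT in 7.17% and either in 12.8% of the 35116 RefSeq entries. Inside the loci (that of HSF1 not included), 3 of 16 such windows held either of them, and of the 5 windows under a peak only that of OR1N1 did. OR1N2, another olfactory receptor gene, had the remaining match, TAATCT 244 bp upstream of its start, with no peak over it. The 16 windows were not all separate. ZNF511 and ZNF511-PRAP1 at FUOM had the same window, and those of RFK and GCNT1 lay under the same peak. The bases under the tall summits were not analysed here, because the peaks are on GRCh38 and the genome sequence at hand was not.

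The genes were chosen for the fold enrichment of their window peak, so the tall peaks are described without a test. Fold enrichment is the ChIP pileup at the summit over the local input, with 1 added to each. It was 49.0 for the RFK peak, 48.6 for HSF1, 48.5 for PLAC8L1, 46.1 for FUOM and 43.1 for OR1J2. The gene ranked 6 stood just outside at 42.6, with 321 ChIP fragments at the summit. Over all peaks the median was 6.10 and the highest 56.1. A window peak was present at 11367 of the 19881 genes, or 57.2%.

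Summit heights in fragments overlapped within counting error. The PLAC8L1 peak was the highest with 367 fragments (95% Poisson interval 330 to 407). RFK had 331 (296 to 369), HSF1 329 (294 to 367), OR1J2 325 (291 to 362) and FUOM 312 (278 to 349). All 5 intervals share the range from 330 to 349, and neighbours in this order differed by less than the width of their intervals, which cover counting error only. The order by fold enrichment also rests on the local input, expressed on the scale of the pileup. It was 3.99 at RFK, 4.00 at HSF1 and FUOM, 4.56 at OR1J2 and 4.59 at PLAC8L1. PLAC8L1 thus had more fragments than RFK and a lower fold enrichment. The lowest local input in the list, a floor set during peak calling, was 3.99 and held for 26.4% of all peaks.

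The tall peaks were not the strongest peaks of the list. The RFK peak ranked 25 by fold enrichment and 840 by fragments. HSF1 ranked 28 and 892, PLAC8L1 31 and 290, FUOM 69 and 1361, and OR1J2 160 and 991. Of the 159 peaks stronger than that of OR1J2, 155 lay in no TSS window of a protein-coding gene record. The choice of the genes fixes this number, since only the other members had a stronger window peak. When the starts of all transcripts were used, 141 lay in no window. The share of all deposited peaks outside the windows is not given here, so these counts are descriptions only. When the genes were ranked by fragments instead of fold enrichment, the ranks became 31 for RFK, 34 for HSF1, 12 for PLAC8L1, 56 for FUOM and 39 for OR1J2. By −log10 q they were 3, 4, 1, 8 and 7 in the same order, from values of 328, 324, 358, 303 and 305.

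**Figure D1:**
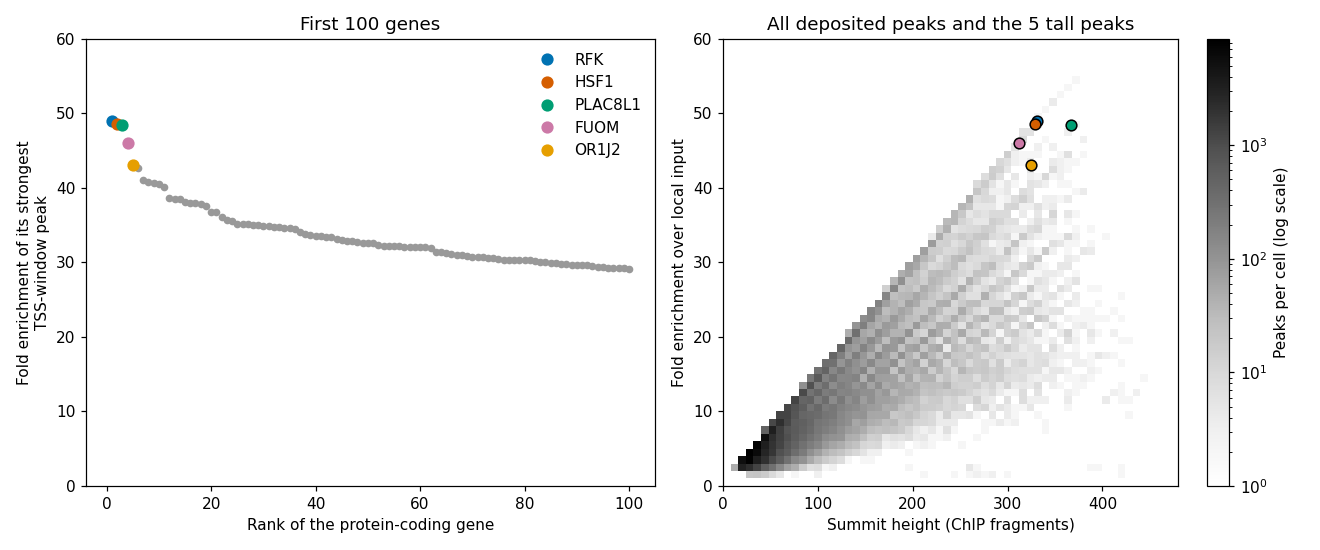
Left, fold enrichment of the strongest TSS-window peak (y axis) of the first 100 protein-coding genes by rank (x axis), with the 5 genes in colour. Right, fold enrichment against summit height in ChIP fragments for all 137412 peaks, shaded by the number of peaks per cell on a log scale, with the 5 tall peaks as coloured points of the same key. The 5 points lie between 312 and 367 fragments and between 43.1 and 49.0, in the thin upper end of the cloud.

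The tall peaks measured 728 bp at HSF1, 948 bp at FUOM, 959 bp at OR1J2, 978 bp at RFK and 1088 bp at PLAC8L1. The median peak of the list was 440 bp long. Another 131 peaks had a fold enrichment in the range of the 5, with a median length of 1031 bp (quartiles 822.5 and 1343 bp), a median of 322 fragments and a median local input of 4.14. The tall peaks of RFK, PLAC8L1, FUOM and OR1J2 lay between these quartiles, and that of HSF1 was shorter.

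None of the 5 tall summits lay at the TSS. Distances were 1687 bp upstream of OR1J2, 1775 bp upstream of RFK, 2240 bp downstream of the HSF1 TSS, 3330 bp upstream of FUOM and 4226 bp upstream of PLAC8L1. Thus 0 of 5 summits lay within 1 kb of the TSS, whereas 60.8% of the strongest window peaks of all genes with one did. Among the next 95 genes by fold enrichment, 24 had their summit within 1 kb. The HSF1 summit lay beyond the 2 kb downstream limit, and the peak counted because its edge reached into the window. Close to the TSS, up to 1 kb in either direction, only RFK carried any peak, a weaker one described below, while 46.9% of all genes had a peak there.

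**Figure D2:**
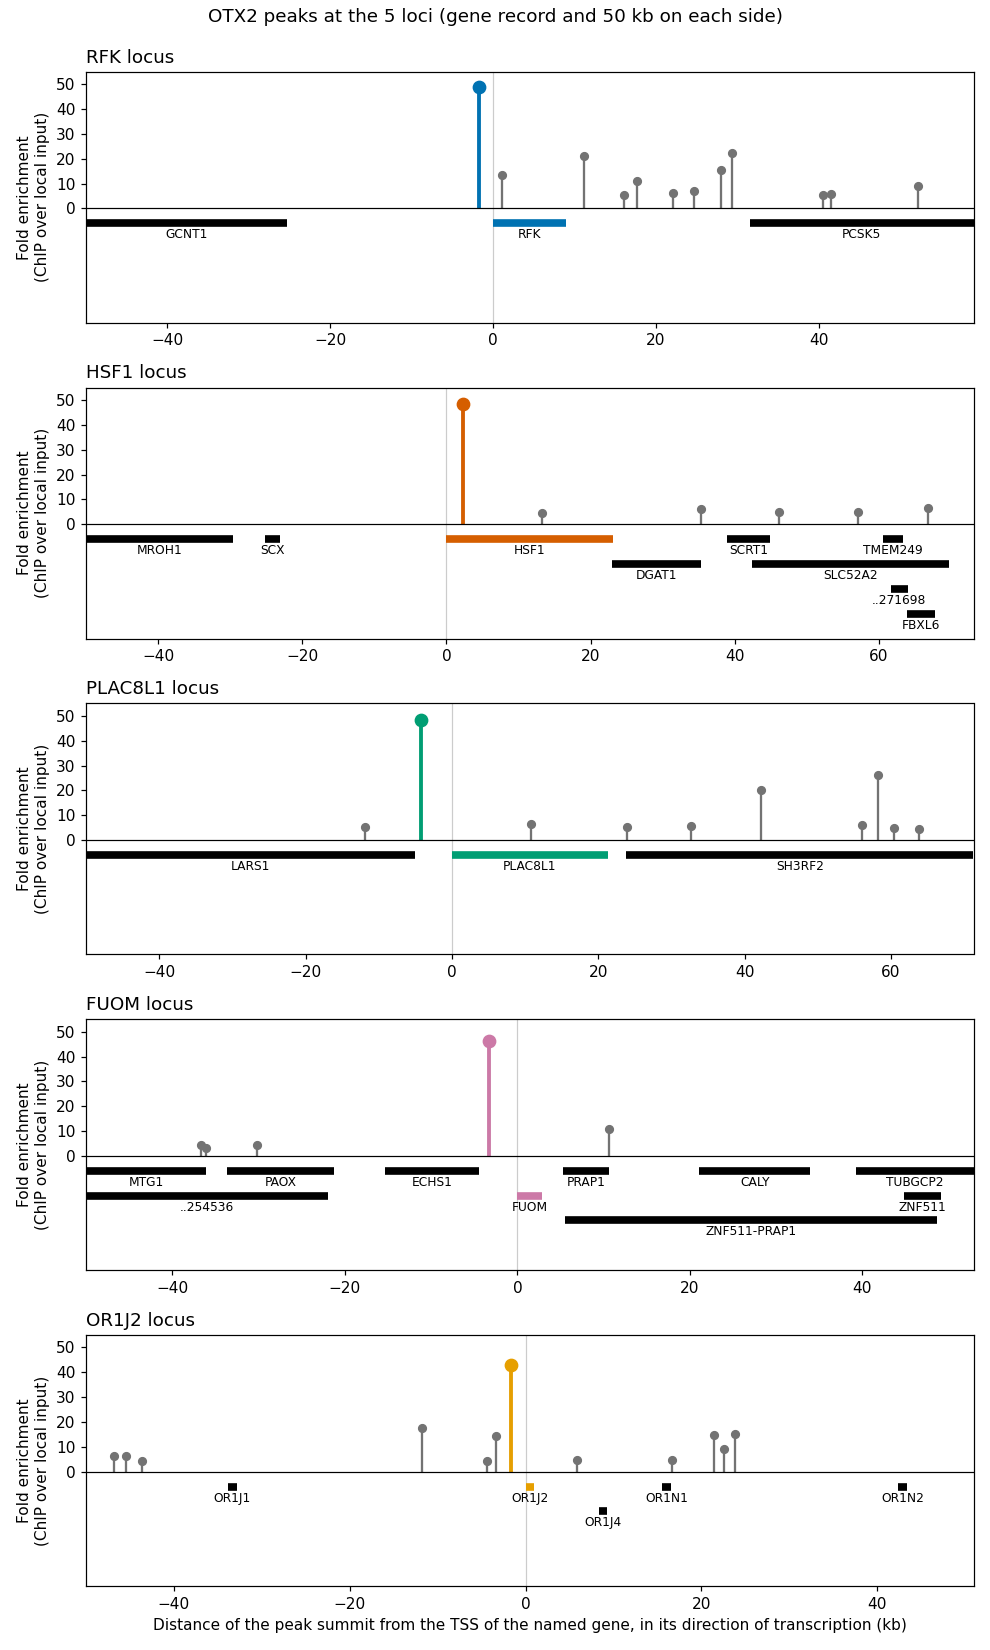
Each panel shows 1 locus. Stems give the fold enrichment of each peak (y axis) at the distance of its summit from the TSS of the named gene (x axis, in kb, negative upstream), with the tall peak in colour, and bars below are the GENCODE protein-coding gene records cut at the panel edge (2 records without a symbol are given by the end of their identifier). A single stem above 40 stands close to 0 kb in every panel, and every other stem is below 30.

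RFK (ENSG00000135002, chr9:76385526-76394517, minus strand) encodes riboflavin kinase, which makes the flavin cofactor FMN from vitamin B2. Its tall peak, chr9:76395788-76396765, fell in no GENCODE protein-coding record. The locus held 12 peaks, and all 12 had a fold enrichment of at least 5, as did 62.9% of all deposited peaks. The next peaks by fold enrichment had values of 22.2 (170 fragments, 29334 bp downstream of the TSS) and 20.9 (255 fragments, 11155 bp downstream), both past the 3′ end of the gene. The second of these had a local input of 8.0, at the top of the range of the locus. Another site, 28030 bp downstream, reached 15.4 with 127 fragments. The weakest peak of the locus had a fold enrichment of 5.54 and 39 fragments.

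The RFK TSS itself lay under a broad peak, chr9:76392746-76395220, that was 2475 bp long and longer than 99.8% of all peaks. Its summit, with a fold enrichment of 13.6 and 95 fragments, lay in intron 1 of RFK, 1033 bp downstream of the TSS. Only 568 bp separated this peak from the tall one. On the other side, no peak was called for 57658 bp beyond the tall peak, and the other 11 summits all lay downstream of the RFK TSS. Of these, 3 lay in introns 35 and 36 of PCSK5, a proprotein convertase gene whose TSS is far outside the locus.

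RFK transcripts begin at 5 positions, 1775 to 2526 bp from the tall summit. GENCODE placed the TSS of GCNT1, an enzyme that branches O-glycans, 23558 bp beyond the tall summit. A ribosomal protein pseudogene, RPSAP9, began at 2407 bp and is named as an exception, since its start is farther than that of RFK. In RefSeq, GCNT1 had 2 further starts beside RFK, at 1439 and 2423 bp from the tall summit, while RFK began at 1866 bp. With RefSeq, then, GCNT1 and not RFK owned the start nearest to the strongest peak of the set, and the GCNT1 record covered that summit. Both of these GCNT1 starts and the RFK start lay under the broad peak. The GCNT1 run given above is that before the nearer start. None of the promoter windows of these 3 starts held either motif.

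HSF1 (ENSG00000185122, chr8:144291591-144314720, plus strand) encodes the heat shock transcription factor that drives chaperone genes under stress. Its tall peak, chr8:144293426-144294153, lay in intron 1 and was the only one of the 5 inside a protein-coding record. The locus held 6 peaks, and the other 5 were weak, from 4.64 to 6.38 in fold enrichment and from 33 to 42 fragments. The tall peak was 7.62 times as strong as the next, the widest gap of the 5 loci. No peak was called for 59478 bp on its upstream side. A second peak in HSF1 intron 1, 13318 bp from the TSS, was the weakest of the locus at 4.64.

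The other peaks of the HSF1 locus lay near or within neighbouring genes. The one of 6.38 was in the untranslated first exon of FBXL6, an F-box protein gene, 915 bp from its GENCODE TSS and 11 bp from its RefSeq start. The RefSeq record of SLC52A2, on the opposite strand to FBXL6, began at chr8:144358552, also under this peak. A peak of 5.95 (39 fragments) lay 24 bp downstream of the TSS of DGAT1, an enzyme of triglyceride synthesis. SCRT1, a repressor of transcription found in neurons, had a peak of 5.07 (40 fragments) 1210 bp upstream of its TSS. A further peak of 4.99 lay in an intron of a long SLC52A2 transcript.

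HSF1 had 14 transcripts, each with its own start, and 1 of them began 1251 bp from the tall summit. The farthest began 19210 bp away. On the opposite strand, RefSeq placed the start of BOP1, a ribosome biogenesis gene, 153 bp before the HSF1 record and 2393 bp from the tall summit. HSF1 began at 2227 bp in RefSeq, so the 2 genes' starts differed little in distance from the peak. The tall peak lay upstream of BOP1, inside the 5 kb that a TSS window at this start would cover. BOP1 had no GRCh38 position in the GENCODE files used, so it was not among the 19881 genes ranked. SCX, the next GENCODE protein-coding gene by its record, began 27378 bp away. A transcript of DGAT1 began at 21307 bp.

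PLAC8L1 (ENSG00000173261, chr5:146084313-146105577, minus strand) is a member of the PLAC8 family. Its tall peak, chr5:146109198-146110285, lay between PLAC8L1 and LARS1, the cytosolic leucyl-tRNA synthetase gene, 763 bp past the 3′ end of LARS1. The summit also fell in an intron of a long non-coding RNA record on the plus strand (ENSG00000251556, 21.0 kb), which was singled out after its position was seen. The locus held 10 peaks. Of these, 7 had summits in SH3RF2, a scaffold protein gene downstream, and they included the next strongest peaks, with a fold enrichment of 26.3 (177 fragments, intron 5, 58244 bp from the PLAC8L1 TSS) and of 20.2 (136 fragments, 42193 bp). The tall peak was 1.84 times as strong as the next, the narrowest gap of the 5 loci.

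Weaker peaks at the PLAC8L1 locus ran from 4.31 to 6.54. That of 6.54 (43 fragments) lay in intron 2 of PLAC8L1, 10863 bp from the TSS, and one of 5.27 (39 fragments) lay in intron 31 of LARS1. PLAC8L1 has 2 transcripts, starting 4226 and 5434 bp from the tall summit. By gene record, the next protein-coding TSS was that of LARS1, 72893 bp away. Counting all GENCODE transcripts, a start of LARS1 lay 20413 bp and one of SH3RF2 53981 bp from the tall summit, and the non-coding RNA record named above began 10397 bp from it. SH3RF2 had 4 transcript starts inside the region. The distance from a summit to the nearest of them was 517 bp for a peak of 6.24 (58 fragments), 1311 bp for that of 4.31, 2103 bp for one of 4.77 (31 fragments) and 2731 bp for that of 26.3. Both neighbours also had small peaks at the TSS of their gene records, which lie outside the region. LARS1 had one of 5.99 with a summit 28 bp upstream of its TSS, and SH3RF2 one of 8.73 at 71 bp upstream.

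FUOM (ENSG00000148803, chr10:133355158-133358025, minus strand) encodes fucose mutarotase, which interconverts forms of the sugar fucose. The tall peak, chr10:133360886-133361833, lay between FUOM and ECHS1, an enzyme of mitochondrial fatty acid oxidation, 1130 bp past the 3′ end of ECHS1. Only 5 peaks were called at this locus. The next was 10.96 in fold enrichment, with 103 fragments and a summit 9 bp downstream of the TSS of PRAP1. MTG1, a GTPase of the mitochondrial ribosome, had 2 small peaks, 1 of 4.46 (35 fragments, 574 bp downstream of its TSS) and 1 of 3.11 (24 fragments, 11 bp downstream), the weakest of the 45 peaks with a −log10 q of 3.49. The remaining peak, 4.18 with 27 fragments, lay in intron 4 of PAOX, a polyamine oxidase gene.

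The FUOM transcripts, 6 in number, began 3330 to 4359 bp from the tall summit. ECHS1 ended nearer to the summit than FUOM began, but its TSS was 11999 bp away. In RefSeq the FUOM start was 3336 bp from the summit, and the order of the genes did not change. Peaks were few around this gene: within 1 Mb of the FUOM TSS the list held 13, against 74 to 127 around the other 4 genes. FUOM lies near the end of its chromosome, so that this region is shorter on one side. On the other side, no peak was called for 552625 bp beyond the peak at PRAP1. The reason for the low number was not tested.

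OR1J2 (ENSG00000197233, chr9:122510802-122511743, plus strand) is an olfactory receptor gene in a cluster with OR1J1, OR1J4, OR1N1 and OR1N2. Olfactory receptors form a large gene family of similar sequence, and how reads with several matches in the genome were placed is not given in the sources used here. The tall peak, chr9:122508524-122509482, lay in no GENCODE protein-coding record but in an intron of a 236.3 kb long non-coding RNA record (ENSG00000234156), also singled out after its position was seen. The locus held 12 peaks, none with its summit inside an olfactory receptor record of GENCODE.

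A group of 3 peaks lay just upstream of OR1J2. From the TSS outwards these were the tall peak, a peak of 14.3 in fold enrichment with 168 fragments at 3325 bp, and one of 4.17 with 44 fragments at 4419 bp, the weakest of the locus. The middle peak had more fragments than any other at the locus but the tall one, and its local input of 7.72 was the highest there. The second by fold enrichment, 17.6 with 118 fragments, lay 11763 bp upstream. On the downstream side, a second group of 3 peaks ran from 21408 to 23812 bp, with values of 14.8 (99 fragments), 9.20 (61) and 15.4 (127). OR1N1, whose promoter run is given above, had a peak of 4.61 (30 fragments) with a summit 196 bp upstream of its TSS.

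OR1J2 had 1 GENCODE transcript, with its start 1687 bp from the tall summit, and OR1J4 was next at 10026 bp. In RefSeq the OR1J2 record ran for 133.0 kb, chr9:122447433-122580427, and its start lay 61.7 kb from the tall summit, which then fell inside the gene. With that start, OR1J4 owned the nearest TSS. The distance of the peak from OR1J2 therefore depended on the annotation more than at any other of the 5 genes.

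**Figure D3:**
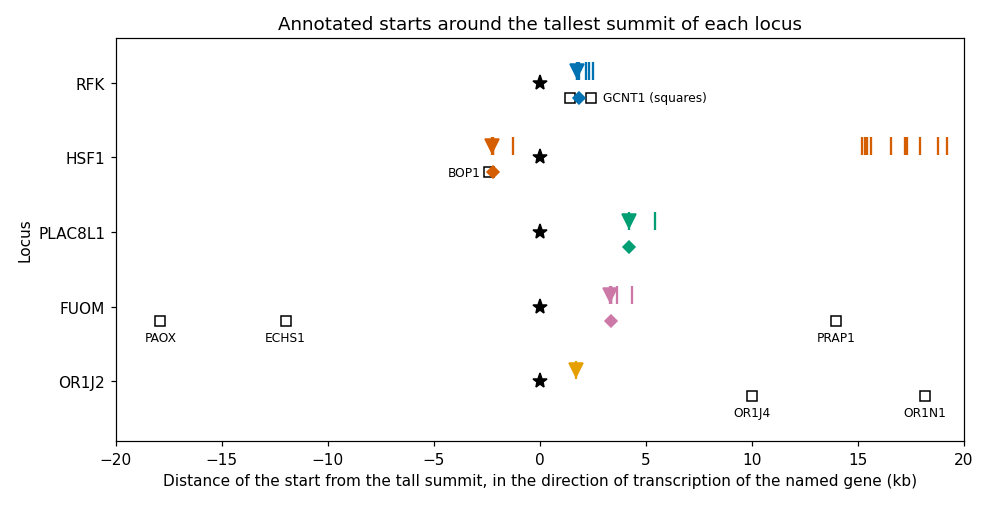
Annotated starts within 20 kb of each tall summit (star), by distance in kb in the direction of transcription of the named gene. Triangles are the GENCODE TSS of the named gene, ticks its GENCODE transcript starts, diamonds its RefSeq start and open squares the RefSeq starts of other protein-coding genes. A GCNT1 square stands nearer to the RFK summit than the RFK marks, and at OR1J2 the diamond is missing because the RefSeq start lies 61.7 kb away.

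By GENCODE gene records, all 5 genes owned the protein-coding TSS nearest to their tall summit, and this also held when the starts of all transcripts or of genes of any biotype were used. By RefSeq it held for 3 (HSF1, PLAC8L1 and FUOM). The GENCODE records of 25 other protein-coding genes reached into the 5 regions, and 12 of them had a peak in their own TSS window (48.0% against 57.2% of all genes). Of the 25, 21 had their TSS inside the region, 9 of these with a window peak (42.9%). The other 4, whose TSS lay outside, were PCSK5, LARS1, SH3RF2 and MROH1. At RFK this was 1 of 2 neighbours, at HSF1 5 of 8, at PLAC8L1 2 of 2, at FUOM 2 of 9 and at OR1J2 2 of 4. Their strongest window peaks ran from 4.46 at MTG1 to 14.8 at OR1N1. The OR1N1 value came from a peak 4917 bp upstream of its TSS. At HSF1, 3 neighbours (TMEM249, FBXL6 and ENSG00000271698) shared the peak of 6.38. BOP1, missing from the GENCODE positions used, is not among the 25. A TSS window at its RefSeq start would hold the HSF1 tall peak of 48.6. The neighbours without a window peak at their GENCODE TSS included GCNT1 at RFK, and SCX, MROH1 and SLC52A2 at HSF1. Others were ECHS1 and CALY at FUOM, and OR1J1 and OR1N2 at OR1J2. For GCNT1 and SLC52A2 this depended on the annotation. With the RefSeq start of GCNT1 1439 bp from the RFK tall summit, the RFK tall peak of 49.0 would lie in its TSS window. The RefSeq record of SLC52A2 began under the peak of 6.38, which would then lie in the TSS window of SLC52A2.

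Beside the 5 tall peaks the loci held 40 others, whose fold enrichment had a median of 6.28 and whose summits had a median of 51 fragments. These values were close to those of the whole list, 6.10 and 53. Of the 40, 4 reached a fold enrichment of 20, 2 at RFK and 2 at PLAC8L1, and 6.72% of all deposited peaks did. A peak of that strength was found at 33.1% of all protein-coding loci of the same definition, and a peak at least as strong as the tall one of OR1J2 at 206 of them (1.04%). Of all 45 summits, 23 lay in a protein-coding record, and 6 lay within 1 kb of a GENCODE protein-coding TSS. With RefSeq starts the latter number was 7, and with the starts of all GENCODE transcripts 8. The matching shares of all deposited peaks are not given here, so these counts do not show whether the loci differ from the whole list.

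The 5 loci differed in how many peaks surrounded the tall one. OR1J2 had 11.9 peaks per 100 kb, RFK 11.0, PLAC8L1 8.25, HSF1 4.87 and FUOM 4.86. The median over all protein-coding genes was 5.12, and 93.3% of genes had a lower density than OR1J2, 90.9% than RFK and 77.4% than PLAC8L1. HSF1 and FUOM lay near the middle, with 47.4% and 47.2% of genes below them. The tall peak had 7.62 times the fold enrichment of the next peak at HSF1 and 4.20 times at FUOM. At OR1J2 the ratio was 2.46, at RFK 2.21 and at PLAC8L1 1.84. The 2 loci with the lower density were thus those where the tall peak stood most apart. The 2 measures are not independent, since a locus with fewer peaks has fewer that could be the next strongest. A link between them was not tested.

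**Figure D4:**
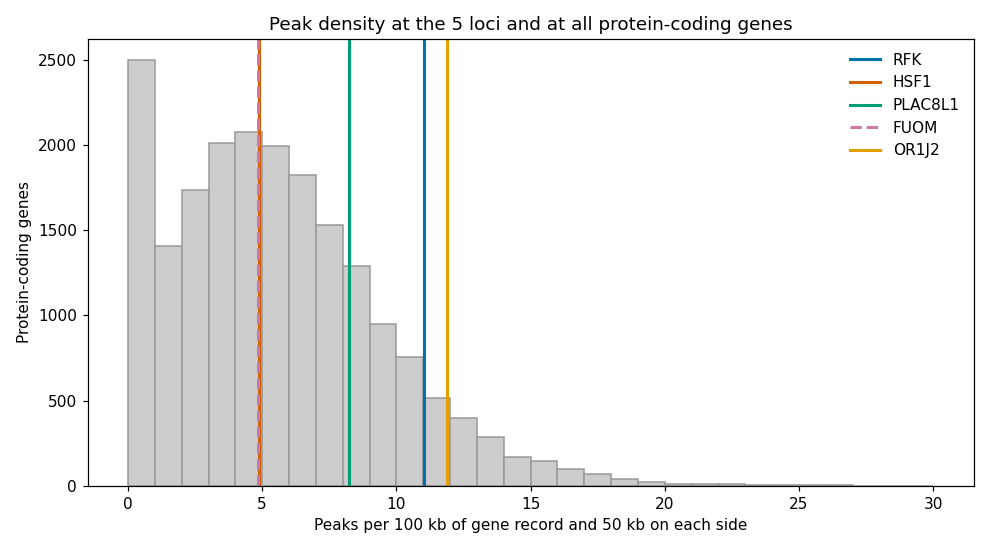
Number of protein-coding genes (y axis) by peaks per 100 kb of gene record and 50 kb on each side (x axis, bins of 1), with a vertical line for each of the 5 loci. The HSF1 and FUOM lines coincide near 4.87, beside the median of 5.12, and those of PLAC8L1, RFK and OR1J2 stand to the right at 8.25, 11.0 and 11.9.

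The local input at these loci ran from 3.99 to 8.0 over the 45 peaks, and 11 of them (24.4%) were at the floor. On chromosome 8 the median local input of all peaks was 8.03, against 5.00 on chromosome 9, 4.98 on chromosome 5 and 4.91 on chromosome 10. The HSF1 locus did not share this: its 6 peaks ran from 3.99 to 5.00, and the 74 peaks within 1 Mb of its TSS had a median of 4.33. Within 1 Mb of the other genes the medians were 5.00 at RFK and PLAC8L1, 4.68 at FUOM and 4.57 at OR1J2. The fold enrichment divides by the local input, and the ranks by fragments given above leave the local input out. Beyond those ranks, the part of the local input in the ranking of the 5 genes was not tested.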

How the data were processed

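The study made 1 OTX2 ChIP library and 1 input library from D283 tumorspheres. Per the submitters' processing notes the authors used Bowtie2 2.2.4 on GRCh38 for alignment and MACS2 2.1.0.20140616 for peak calling. Per the file headers, 1 fragment was kept per position, with a q-value cutoff of 0.05, on 84980793 ChIP and 32292980 input fragments before duplicate removal. Blacklisted regions were masked, by the study's own account. The deposited pileup is a signal, the coverage at the summit scaled by MACS2. Fold enrichment was deposited as a ratio of the pileup to the local input, and significance as the −log10 of each peak's q-value. The ChIP was 2.72 times as deep as the input, whose lower depth bounds how precisely a fold enrichment is known.

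Each ChIP fragment adds 0.735 to the pileup, and 100% of pileups were whole fragments within 0.02, which gave the summit heights, with 95% exact Poisson intervals. The local input was computed as (pileup + 1)/fold enrichment − 1, and a peak was at its floor within 0.01. Gene positions were the GRCh38 positions recorded in GENCODE release 44, and RefSeq GRCh38.p14 was the alternative. For 381 RefSeq protein-coding genes no strand was found, and these were not used. Each TSS was taken at the 5′ end of a gene's record. Intervals came from scipy 1.17.1 and figures from matplotlib 3.10.9, with tables handled in pandas 2.3.3 and numpy 2.4.6 under Python 3.11.15. Overlap counting was tested on simulated peaks for TSS windows, where 200 of 200 planted genes were found among 19881. No test was run between groups, since each had 1 library.

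The 5 genes and the motifs were chosen with earlier results of these data known. The genes named were these 5, the protein-coding genes at their loci and genes whose start lies nearer to a tall summit; exceptions are marked. Alternatives were other flanks, windows, rankings, annotations and peak thresholds.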

Additional observations from a re-analysis of the deposited data

How the results depend on the processing

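The 5 loci held 45 peaks, 30 with 25 kb on each side and 78 with 100 kb, and 34 to 45 under the stricter peak thresholds and with the summit required inside. The members that own the nearest TSS fell from 5 to 3 with RefSeq starts and stayed at 5 under the other 3 choices. By definition, the tall peak overlapped the TSS window of all 5 genes. It lay in the window of 4 when the summit had to lie there (HSF1 left out) and of 0 with 1 kb on either side. The choice of genes depended on the ranking. Of the 5, 0 stayed among the first 5 when ranked by pileup, 3 when ranked by −log10 q, 3 with any transcript start and 0 with the narrow window of 1 kb. No paired analysis was possible because each group had a single library. For the same reason no library could be left out, and each value holds for these libraries only.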
